A study of Mus musculus with 12 samples.

Results

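Kupffer cells are the macrophages that live in the sinusoids of the liver, where they take up particles, dying cells and haemoglobin complexes from the blood. They carry complement and scavenger receptors, and they secrete proteins of innate defence, among them the chains of C1q, the recognition unit of the classical complement pathway. Expression of 10 genes known from these cells was examined: Clec4f, Vsig4, Timd4, Marco, Cd5l, Adgre1, C1qa, C1qb, C1qc and Cd163. They were chosen by gene symbol, with earlier results of these data known. All 10 were found among the 46078 genes of the count table, and all 10 were among the 13054 genes with enough counts to be tested.

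RNA of whole liver was sequenced from male C57BL/6J mice (C57BL/6 in the sample labels) aged 21 weeks with diet-induced obesity from a high fat diet, 4 mice in each of 3 groups. VSG mice had vertical sleeve gastrectomy, an operation that removes most of the stomach. Sham-WM mice had a sham operation and restricted food, so that their weight matched that of VSG mice, while Sham-Ad lib mice had a sham operation and free access to food. Livers were taken on day 16, once food had been withheld for 5 hours. Each library is named here by its animal number: 3F, 4F, 6F and 10F for Sham-Ad lib, 2F, 9F, 15F and 16F for Sham-WM, and 1F, 8F, 11F and 18F for VSG. Total counts ranged from 15122520 in 11F to 19384076 in 9F. Alb, which encodes serum albumin and is a defining marker of hepatocytes, took between 4.89% of the counts in 11F and 12.2% in 16F.

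Levels are given as CPM, counts scaled to a common library total and then by TMM factors, which adjust for differences in composition between libraries. Library 4F stood apart from the other Sham-Ad lib libraries, with the highest value of its group for all 10 genes, from 1.65 times the mean of the other 3 for Cd163 to 8.62 times for Marco. Library 1F was the highest VSG library for all 10 genes, and 18F was the lowest for 8 of them. The index numbers in the library names ran in 1 block for each group, so an effect of library order cannot be told apart from the treatment. Each animal number in a library name is found in a single sample title. A second field of the sample labels lists the library names in alphabetical order, beside the titles of other animals. With the libraries grouped by that field, edgeR called 0 of the 10 genes and 0 of all genes in each of the 3 comparisons, and the number of the 10 with an unadjusted p under 0.05 was 1 for VSG against Sham-Ad lib and 0 for the others. All results that follow group the libraries by animal number.

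The genes lie on 7 chromosomes of the mm10 assembly. Clec4f (ENSMUSG00000014542, chr6:83644542-83656187) encodes a lectin receptor that in mice is largely restricted to Kupffer cells. Its level in Sham-Ad lib was 42.8 CPM in 3F, 93.7 in 4F, 60.1 in 6F and 47.9 in 10F. In Sham-WM it was 55.4 CPM in 2F, 55.0 in 9F, 64.7 in 15F and 38.0 in 16F, and in VSG it was 242 CPM in 1F, 148 in 8F, 148 in 11F and 124 in 18F. All 4 VSG libraries were above all 8 sham libraries, and the sham groups overlapped. The mean was 165 ± 52.1 CPM (SD, n = 4) in VSG, 53.3 ± 11.1 (SD, n = 4) in Sham-WM and 61.1 ± 22.9 (SD, n = 4) in Sham-Ad lib. In RNA from whole liver, more cells of a type and more RNA in each of them cannot be told apart, nor can fewer cells and less RNA per cell.

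Vsig4 (ENSMUSG00000044206, chrX:96247203-96293438) encodes a receptor for fragments of complement C3 with which Kupffer cells capture opsonised particles. Its level was 12.6 CPM in 3F, 34.0 in 4F, 19.2 in 6F and 19.1 in 10F of Sham-Ad lib. It was 17.7 CPM in 2F, 18.8 in 9F, 24.5 in 15F and 14.9 in 16F of Sham-WM, and 114.7 CPM in 1F, 55.2 in 8F, 62.0 in 11F and 48.2 in 18F of VSG. As with Clec4f, the lowest VSG library was above the highest sham library. Marco (ENSMUSG00000026390, chr1:120474538-120505024), a scavenger receptor for bacteria and particles, had the widest range of the 10 genes, 46.8 times from lowest to highest library. Its level was 6.14 CPM in 3F, 57.5 in 4F, 6.71 in 6F and 7.15 in 10F of Sham-Ad lib, and 12.3 CPM in 2F, 12.6 in 9F, 9.79 in 15F and 5.57 in 16F of Sham-WM. In VSG it was 261 CPM in 1F, 109.6 in 8F, 96.0 in 11F and 32.8 in 18F. Library 4F lay above 18F, so VSG and Sham-Ad lib overlapped, while VSG and Sham-WM did not.

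Timd4 (ENSMUSG00000055546, chr11:46810800-46844332), a receptor for phosphatidylserine on dying cells that marks long-lived resident macrophages, ranged from 8.93 to 24.3 CPM in VSG, 3.15 to 6.94 in Sham-WM and 2.96 to 10.7 in Sham-Ad lib. Its highest Sham-Ad lib library, 4F, was above its lowest VSG library, 18F. Cd163 (ENSMUSG00000008845, chr6:124304656-124330527), the receptor for complexes of haemoglobin and haptoglobin, was at 8.82 CPM in 3F, 14.4 in 4F, 10.5 in 6F and 6.78 in 10F of Sham-Ad lib. It was at 5.66 CPM in 2F, 9.01 in 9F, 7.85 in 15F and 6.30 in 16F of Sham-WM, and at 27.7 CPM in 1F, 20.3 in 8F, 8.59 in 11F and 20.4 in 18F of VSG. Library 11F was within the range of both sham groups for Cd163, although it was above all sham libraries for Clec4f and Vsig4. Adgre1 (ENSMUSG00000004730, chr17:57358691-57483527), which encodes the macrophage antigen F4/80, ranged from 24.03 to 63.3 CPM in VSG, 5.46 to 10.4 in Sham-WM and 7.47 to 33.4 in Sham-Ad lib, where 4F alone reached the VSG range.

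Among the secreted products, Cd5l (ENSMUSG00000015854, chr3:87357881-87371073), also called apoptosis inhibitor of macrophage, was at 40.9 CPM in 3F, 146 in 4F, 55.9 in 6F and 46.6 in 10F of Sham-Ad lib. In Sham-WM it was at 60.1 CPM in 2F, 52.0 in 9F, 68.8 in 15F and 37.1 in 16F, and in VSG at 413 CPM in 1F, 214 in 8F, 202 in 11F and 149 in 18F. The VSG libraries were all above the sham libraries, with 18F close to 4F. The genes of the C1q chains, C1qa (ENSMUSG00000036887), C1qb (ENSMUSG00000036905) and C1qc (ENSMUSG00000036896), lie within 18.7 kb at chr4:136880129-136898803. C1qa ranged from 63.8 to 175 CPM in VSG, 17.0 to 32.9 in Sham-WM and 22.4 to 60.9 in Sham-Ad lib. For C1qb the ranges were 69.1 to 191, 17.8 to 33.6 and 18.0 to 69.7 CPM in the same order of groups, and for C1qc 66.7 to 164, 18.0 to 31.6 and 20.8 to 64.9. For each chain the lowest VSG library was 18F and the highest Sham-Ad lib library was 4F, with 4F above 18F for C1qb alone.

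**Figure D1:**
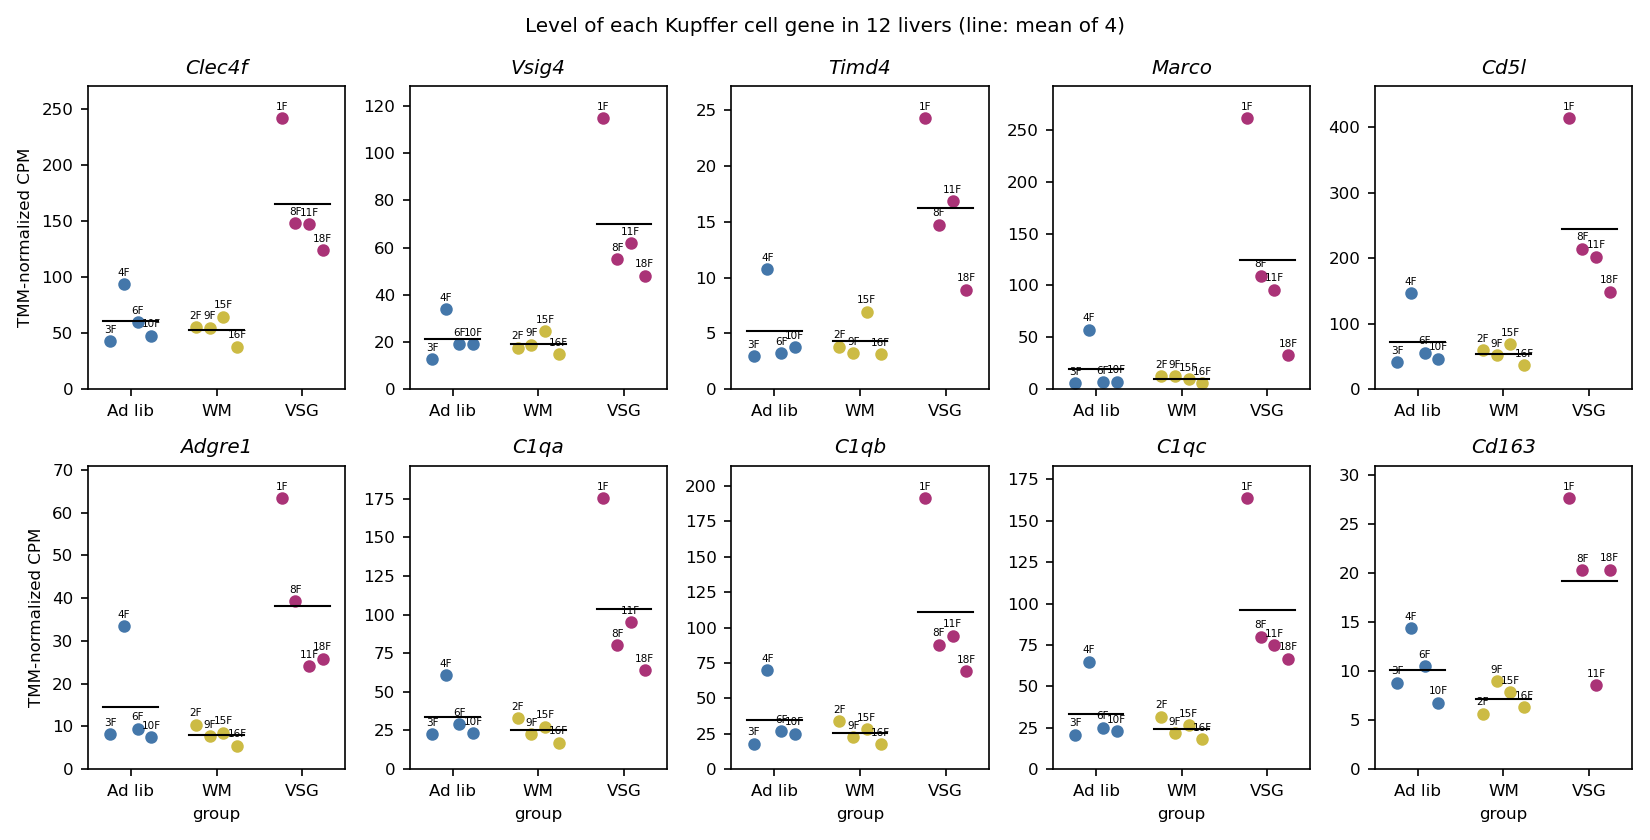
CPM of the 10 Kupffer cell genes (vertical axes, from 0) in 12 livers by group, with the animal number at each point and a line at the mean of 4. Library 4F is the highest of Sham-Ad lib in every panel and 1F the highest of VSG, as with 57.5 and 261 CPM for Marco.

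Between genes, levels were compared as CPM per kilobase of exon. In VSG the order by mean was Cd5l with 120.2, C1qb with 102, C1qa with 99.6, Clec4f with 67.0, Marco with 64.8, C1qc with 49.9, Vsig4 with 47.2, Adgre1 with 11.8, Timd4 with 7.46 and Cd163 with 3.52. Of the neighbours in this order, only Vsig4 and Adgre1 had ranges over the 4 libraries that did not overlap. In Sham-Ad lib the order ran from Cd5l with 35.6 ± 24.4 CPM per kb (SD, n = 4) to Cd163 with 1.85 ± 0.590 (SD, n = 4), and the ranges of all neighbours overlapped. In Sham-WM it ran from Cd5l with 26.8 ± 6.60 CPM per kb (SD, n = 4) to Cd163 with 1.32 ± 0.278 (SD, n = 4), and only the neighbours C1qc and Marco did not overlap. Levels of the C1q chains kept close to one another within a library: C1qb per kb was between 0.766 and 1.09 times C1qa over the 12 libraries, and C1qc between 0.425 and 0.575 times.

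**Figure D2:**
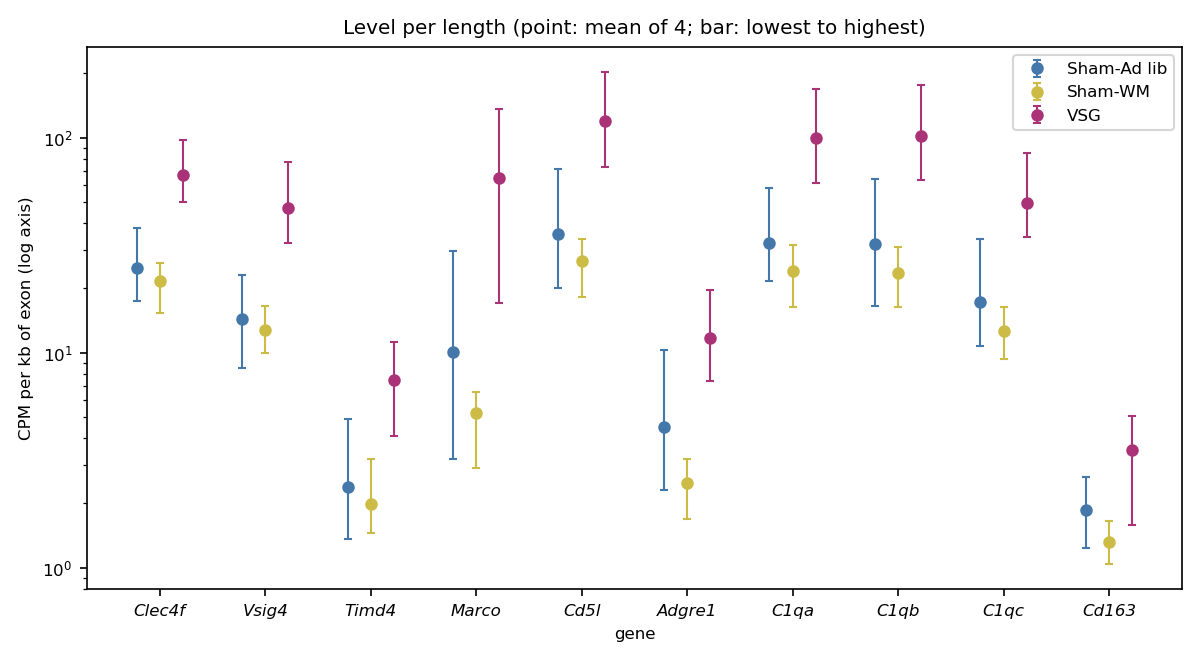
Level of each gene in CPM per kilobase of exon (log axis) by group, as the mean of 4 libraries with a bar from the lowest to the highest. Cd5l has the highest mean in each group, with 120.2 in VSG, and Cd163 the lowest, with 3.52.

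The 250 bases before the start are shown for 4 genes with different roles, a complement receptor, a scavenger receptor, a secreted protein and a C1q chain. These 4 were chosen after their values were seen. They moved together across libraries, but Clec4f, not shown, followed the other members more closely than Vsig4 or Marco did. Promoter sequences from RefSeq (GRCm38.p6) matched 8 of the 10 genes, without Adgre1 and C1qa. Matches on either strand to GAGGAA (for PU.1, a factor of all macrophages), TGCTGA (MAF), AGGTCA (the core site of LXR or RXR) and TGGGAA (RBPJ) are in capitals, and no match shown overlapped another. The sequences lie at chrX:96293439-96293688 (minus strand), chr1:120505025-120505274 (minus strand), chr3:87357631-87357880 (plus strand) and chr4:136886201-136886450 (minus strand), and each is written 5′ to 3′ on the strand of its gene.
Vsig4: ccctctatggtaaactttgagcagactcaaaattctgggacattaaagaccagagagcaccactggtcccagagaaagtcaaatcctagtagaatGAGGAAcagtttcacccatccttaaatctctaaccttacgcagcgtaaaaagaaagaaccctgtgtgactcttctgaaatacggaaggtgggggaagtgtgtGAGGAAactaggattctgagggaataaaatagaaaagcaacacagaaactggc
Marco: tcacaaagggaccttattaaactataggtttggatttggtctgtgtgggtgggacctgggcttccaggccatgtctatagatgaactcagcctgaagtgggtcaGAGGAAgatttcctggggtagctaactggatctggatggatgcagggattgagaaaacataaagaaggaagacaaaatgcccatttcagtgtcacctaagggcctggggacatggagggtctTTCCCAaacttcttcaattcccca
Cd5l: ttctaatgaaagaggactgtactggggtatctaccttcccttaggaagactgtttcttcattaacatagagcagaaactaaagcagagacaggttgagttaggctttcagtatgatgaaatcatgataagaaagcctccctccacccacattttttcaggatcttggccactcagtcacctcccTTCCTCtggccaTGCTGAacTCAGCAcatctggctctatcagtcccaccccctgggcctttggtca
C1qb: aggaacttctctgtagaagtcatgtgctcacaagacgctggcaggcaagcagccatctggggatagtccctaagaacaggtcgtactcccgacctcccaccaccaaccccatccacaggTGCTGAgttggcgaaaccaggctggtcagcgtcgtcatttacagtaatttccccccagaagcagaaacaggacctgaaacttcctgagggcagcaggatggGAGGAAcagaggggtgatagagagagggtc
Letters were counted in the 250 bases before the RefSeq start, of which 179 for Clec4f, 99 for C1qc and all for the other 6 also lie before the GENCODE start. The PU.1 letters were in 5 of the 8 sequences and in 23.3% of 32851 promoters, and the MAF letters were in 4 of 8 and in 16.1%. The LXR or RXR letters were in 3 of 8 and in 14.0% of promoters, and the RBPJ letters in 2 of 8 and in 21.6%. In the bases before both starts these 2 were in 2 and 1 of 8, without Clec4f. All 4 genes shown hold the PU.1 letters, while Clec4f, Timd4 and Cd163 do not, and Cd163 held none of the 4. A match describes the letters, and binding was not measured.

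VSG was compared with Sham-Ad lib to see how the liver differed after the operation from that of sham-operated mice with free access to food. The fitted log2 fold change was positive for all 10 genes, with a median of 1.63, beside 0.028 over all genes tested. Clec4f rose by 1.44 ± 0.26 (log2, SE) and Vsig4 by 1.72 ± 0.31, each with an adjusted p of 0.0435 from edgeR's quasi-likelihood test with Benjamini-Hochberg adjustment. These were 2 of the 10 genes called at an adjusted p under 0.05, beside 0.467% of all genes called higher and 0.283% called lower. The other 8 missed the threshold, with log2 fold changes from 0.93 for Cd163 to 2.68 for Marco, adjusted p-values in edgeR between 0.0515 and 0.102, and unadjusted p-values under 0.05. In 5 of the 10 genes, Clec4f, Vsig4, Cd5l, C1qa and C1qc, all VSG libraries were above all Sham-Ad lib libraries, beside 4.87% of all genes.

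Single libraries and the method decided how many genes were called in this comparison. Without 4F, edgeR called 10 of the 10 genes with a median log2 fold change of 2.13, and the value for Marco was 4.22 and that for Adgre1 2.19. Without 18F it called 8, and without 8F 3. Over all genes, edgeR called 903 without 4F, 1089 without 18F and 227 without 8F. Without any 1 of 3F, 6F, 10F, 2F, 9F, 15F, 16F or 1F it called 0 of the 10, each with an unadjusted p under 0.05. It called between 0 and 3 of all genes, so that every call of this comparison named in the text ended. Clec4f then had log2 fold changes from 1.20 to 1.43 and Vsig4 from 1.38 to 1.72. Of these libraries, 2F, 9F, 15F and 16F are from Sham-WM and hold no values of the groups compared. Without any 1 of them the median log2 fold change was 1.624 to 1.625, beside 1.626 with all libraries. DESeq2 called 9 of the 10 with all libraries, all but Adgre1, beside 1202 of all genes. EdgeR called 0 with the Sham-WM libraries left out or with genes limited to those with 10 counts in every library, 8 with no filter on low counts, 0 with RUVs factors and 10 with RUVr factors, which are estimates of unwanted variation. Over all genes it called 98 in the main fit, 628 with no filter, 8 with RUVs factors and 3034 with RUVr factors. That number was 0 with the Sham-WM libraries left out or with 10 counts in every library.

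Sham-WM was compared with Sham-Ad lib to see what weight loss by food restriction did without the operation. EdgeR called 0 of the 10 genes, 0 had an unadjusted p under 0.05, and DESeq2 called 0, beside 3.53% of all genes called higher and 3.45% called lower by edgeR. The log2 fold changes ran from −0.94 ± 0.74 (SE) for Marco to −0.16 ± 0.31 for Vsig4, with a median of −0.44, beside 0.00079 over all genes tested. The groups overlapped for all 10 genes, while 17.6% of all genes had groups that did not overlap. The sign rested on 4F: without it the median was 0.11, and 8 of the 10 genes, all but Adgre1 and Cd163, had a positive log2 fold change, the largest being 0.60 for Marco. With RUVr factors Adgre1 was called lower, beside 2188 of all genes called in either direction.

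VSG was compared with Sham-WM to set the operation against weight loss brought about by diet. All 10 genes were called higher in VSG, beside 15.0% of all genes called higher and 11.9% called lower, and the median log2 fold change was 2.01, beside 0.028 over all genes tested. Marco rose by 3.63 ± 0.79 (log2, SE; edgeR adjusted p = 0.00609), from a mean of 10.1 to 125 CPM. Without 1F the VSG mean of Marco was 79.4 CPM and its log2 fold change 2.98. Cd163 rose least, by 1.42 ± 0.31 (edgeR adjusted p = 0.00612), and Clec4f rose by 1.63 ± 0.26 (edgeR adjusted p = 0.00155). The other 7 rose by between 1.88 for Vsig4 and 2.25 for Adgre1, with adjusted p-values in edgeR between 0.00174 and 0.00703. In 9 of the 10 genes, all but Cd163, the VSG libraries were all above the Sham-WM libraries, beside 14.3% of all genes. All 10 genes were called whichever single library was left out, beside 2196 to 3868 of all genes. The medians were between 1.66 without 1F and 2.17 without 18F. With 2 RUVs factors, 1 of the 10 was called, beside 524 of all genes, and the median was 0.92.

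**Figure D3:**
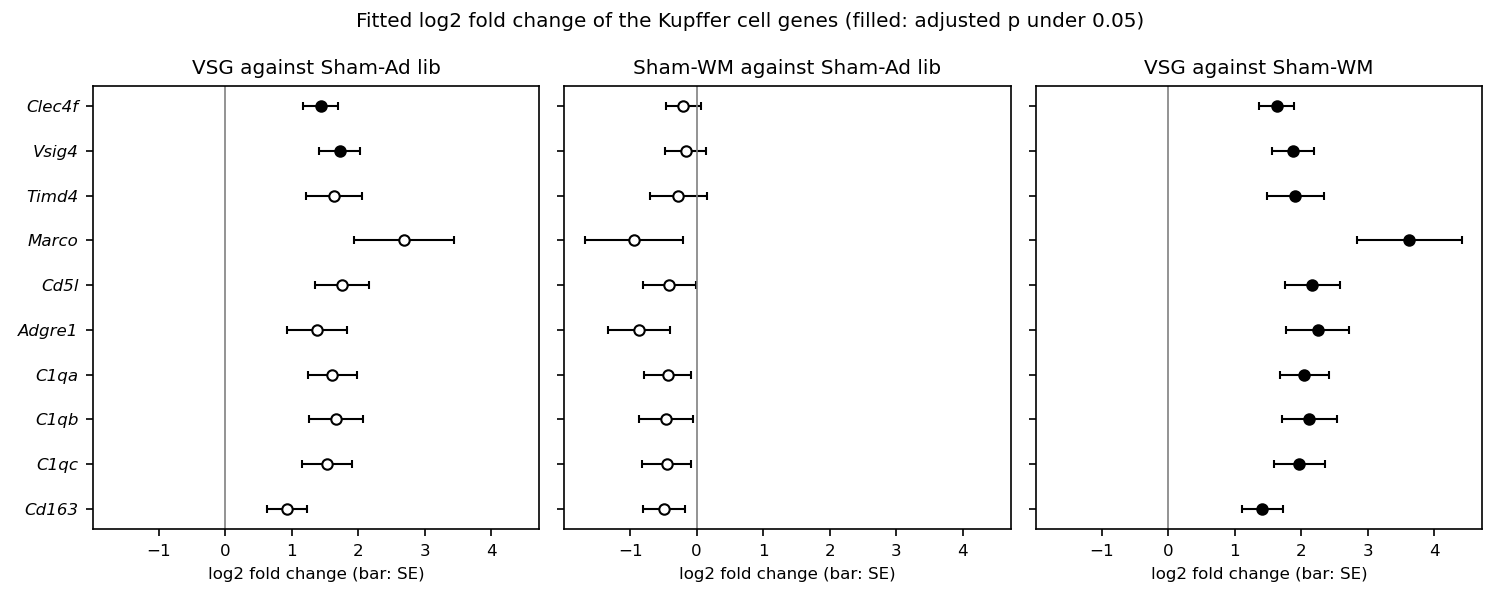
Fitted log2 fold change of each gene (horizontal axis) in 3 comparisons that share libraries, with bars of 1 SE and filled points where the adjusted p was under 0.05. From left to right, 2, 0 and 10 of the 10 points are filled.

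The comparisons of VSG and of Sham-WM with Sham-Ad lib share the Sham-Ad lib libraries, 4F among them, and the difference between them is the comparison of VSG with Sham-WM. Side by side, their log2 fold changes were 2.68 and −0.94 for Marco, 1.76 and −0.41 for Cd5l, 1.61 and −0.44 for C1qa, and 1.44 and −0.20 for Clec4f. Of these values, only that of Clec4f in VSG was called. Without 4F the Sham-WM values were 0.60, 0.19, 0.011 and 0.085 in the same order of genes.

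Of 12 other genes enriched in resident Kupffer cells, 4 were called higher in VSG than in Sham-Ad lib, beside 0.467% of all genes. Compared with Sham-WM, 8 were called higher and 1 lower, beside 15.0% and 11.9% of all genes. These shares of all genes hold for the lists below too. Against Sham-Ad lib, 8 had an unadjusted p under 0.05 and DESeq2 called 7. The number of calls over Sham-WM was 1 with RUVs factors and 0 with groups by the second label field. Folr2, a folate receptor, had means of 22.9 CPM in VSG, 5.99 in Sham-WM and 6.20 in Sham-Ad lib. It rose by 1.88 ± 0.29 over Sham-Ad lib (log2, SE; edgeR adjusted p = 0.0410), and Fcna, Clec1b and Kcna2 rose by 1.38, 1.19 and 1.51. All 4 VSG libraries were above all Sham-Ad lib libraries for 7 of the 12 genes, beside 4.87% of all genes, and for each of these 4. Their calls ended without any 1 of 3F, 6F, 10F, 2F, 9F, 15F, 16F or 1F, with log2 fold changes from 1.58 to 1.90 for Folr2, and those of Fcna, Clec1b and Kcna2 ended without 11F too, with 1.09 to 1.47, 0.93 to 1.21 and 1.21 to 1.56. Over Sham-WM, Spic, which encodes a transcription factor of macrophages that recycle iron, rose by 2.47, Folr2 by 1.93, Clec1b by 1.36 and Kcna2 by 1.33. The most abundant genes of the list were C6, not called in any comparison, and Slc40a1, the iron exporter ferroportin, which rose by 0.80 over Sham-WM. Id3, which encodes a transcriptional regulator needed by Kupffer cells and expressed by other cells too, had means of 21.6 CPM in VSG, 38.6 in Sham-WM and 15.3 in Sham-Ad lib. It rose in Sham-WM by 1.33 ± 0.28 over Sham-Ad lib (edgeR adjusted p = 0.0126), and was the gene called lower in VSG than in Sham-WM, by −0.83, a call that ended without any 1 of 9F, 15F, 16F, 1F or 18F, with −0.89 to −0.62. The median log2 fold changes of the list were 1.14 for VSG against Sham-Ad lib, −0.10 between the sham groups and 1.09 for VSG against Sham-WM.

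Most genes shared by macrophages of any origin were also higher in VSG than in Sham-WM. Of 16, 2 were called higher in VSG than in Sham-Ad lib and 14 higher than in Sham-WM by edgeR. Against Sham-Ad lib, 13 had an unadjusted p under 0.05 and DESeq2 called 12. The number of calls over Sham-WM was 4 with RUVs factors and 0 with groups by the second label field. Between the sham groups edgeR called 0, with 1 at an unadjusted p under 0.05 and 1 called by DESeq2, both lower in Sham-WM. Their summed level was 325 CPM in 3F, 776 in 4F, 362 in 6F and 386 in 10F of Sham-Ad lib, and 359 CPM in 2F, 256 in 9F, 312 in 15F and 321 in 16F of Sham-WM. In VSG it was 1742 CPM in 1F, 1046 in 8F, 778 in 11F and 722 in 18F. Library 4F was above 18F and close to 11F, and the other sham libraries were below the VSG range. Mpeg1, the most abundant of these genes over all libraries, rose by 1.82 over Sham-WM. Lyz2, which encodes lysozyme, had means of 238 CPM in VSG, 29.2 in Sham-WM and 47.0 in Sham-Ad lib, and rose by 3.02 ± 0.55 over Sham-WM (log2, SE; edgeR adjusted p = 0.00258). Cd14, a co-receptor for lipopolysaccharide, rose by 3.42 ± 0.64 over Sham-Ad lib (edgeR adjusted p = 0.0442) and Fcer1g by 1.85 ± 0.39. Both calls ended without any 1 of 3F, 6F, 10F, 2F, 9F, 15F, 16F or 1F, and that of Fcer1g without 11F, with log2 fold changes from 2.25 to 3.41 for Cd14, the lowest without 1F, and from 1.45 to 1.91 for Fcer1g. Without 4F the values were 3.89 and 2.39. Over Sham-WM, Cd14, Cybb and Spi1, the gene of PU.1, rose by 4.04, 2.35 and 2.35. The list's medians were 1.43 for VSG against Sham-Ad lib, −0.50 between the sham groups and 2.07 for VSG against Sham-WM.

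As a percentage of this summed macrophage level within each library, each Kupffer cell gene varied less than in CPM. Clec4f ranged from 11.8% to 21.5% over the 12 libraries, a spread of 1.82 times, against 6.37 times in CPM. Its mean was 16.1 ± 2.45% in VSG, 17.4 ± 4.58% in Sham-WM and 13.6 ± 2.09% in Sham-Ad lib (SD, n = 4), and the groups overlapped. C1qc spread over 1.72 times, against 9.08 times in CPM, and Vsig4 over 2.05 times against 9.10. Marco spread most, over 8.63 times, with 4.53% to 15.0% in VSG, 1.74% to 4.93% in Sham-WM and 1.85% to 7.40% in Sham-Ad lib. The Marco ranges of VSG and both sham groups overlapped through 18F. Cd5l ranged from 20.5% to 26.0% in VSG, above all Sham-Ad lib libraries with 12.1% to 18.9% but not above those of Sham-WM with 11.6% to 22.04%. Cd163 had means of 1.86 ± 0.724% in VSG, 2.40 ± 0.846% in Sham-WM and 2.31 ± 0.586% in Sham-Ad lib (SD, n = 4), and its groups overlapped. These percentages were not tested, and they depend on the make-up of the summed level, which differed between groups. Lyz2 had a mean of 238 CPM beside a summed mean of 1072 in VSG. In Sham-WM these means were 29.2 and 312 CPM, and in Sham-Ad lib 47.0 and 462.

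**Figure D4:**
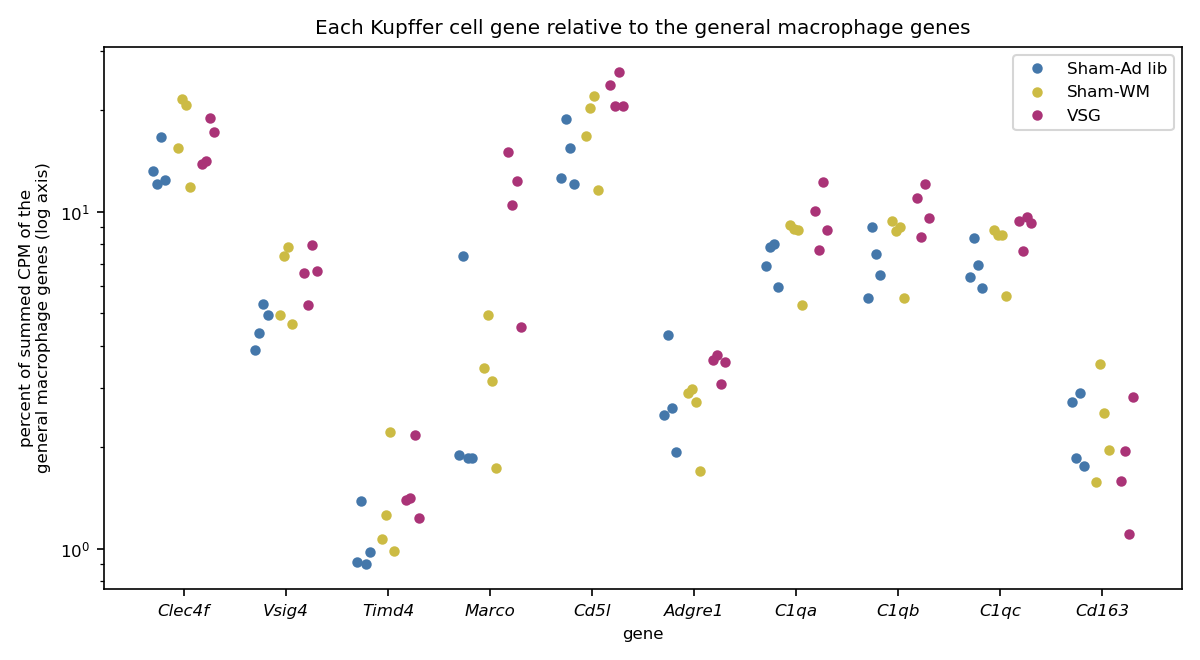
Each Kupffer cell gene as a percentage of the summed CPM of 16 general macrophage genes in the same library (log axis), 1 point for each of 12 libraries. The points of Clec4f lie between 11.8% and 21.5%, and those of Marco between 1.74% and 15.0%.

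Monocyte and neutrophil genes moved with the same libraries. Of 8 monocyte genes 7 could be tested, all but Vcan, and 1 was called higher in VSG than in Sham-Ad lib and 6 higher than in Sham-WM by edgeR. Against Sham-Ad lib, 6 had an unadjusted p under 0.05 and DESeq2 called 6. The number of calls over Sham-WM was 2 with RUVs factors and 0 with groups by the second label field, and 3 with 10 counts in every library. Their summed level was 7.09 CPM in 3F, 30.7 in 4F, 7.90 in 6F and 9.79 in 10F of Sham-Ad lib, and 10.9 CPM in 2F, 7.07 in 9F, 8.77 in 15F and 7.49 in 16F of Sham-WM. In VSG it was 176 CPM in 1F, 115.2 in 8F, 37.7 in 11F and 21.4 in 18F. Library 4F was above the other sham libraries and above 18F. Plac8 was the most abundant gene over all libraries and rose by 2.58 over Sham-WM. Chil3 had means of 25.6 CPM in VSG, 0.160 in Sham-WM and 0.677 in Sham-Ad lib, and rose by 5.20 ± 1.03 over Sham-Ad lib (log2, SE; edgeR adjusted p = 0.0445). This call ended without any 1 of 3F, 6F, 10F, 2F, 9F, 15F, 16F or 1F, with log2 fold changes from 4.34 to 5.19, and without 4F the value was 7.51. Over Sham-WM, Chil3 rose by 7.29, Ly6c2, which defines inflammatory monocytes, by 4.84 ± 0.87 (edgeR adjusted p = 0.00245), and F13a1 and Itgam by 4.58 and 3.01. In Sham-WM against Sham-Ad lib edgeR called 0 of the 7, 0 had an unadjusted p under 0.05 and DESeq2 called 0. The medians were 2.36, −0.65 and 3.01 in VSG against Sham-Ad lib, the sham groups, and VSG against Sham-WM.

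Of 8 neutrophil markers 6 could be tested, all but Ly6g and Mmp8, and 4 were called higher in VSG than in Sham-Ad lib and 6 higher than in Sham-WM by edgeR. Against Sham-Ad lib, 6 had an unadjusted p under 0.05 and DESeq2 called 6. The number of calls over Sham-WM was 3 with RUVs factors and 0 with groups by the second label field, and 1 with 10 counts in every library. Their summed level was 2.29 CPM in 3F, 18.1 in 4F, 1.35 in 6F and 3.20 in 10F of Sham-Ad lib, and 3.62 CPM in 2F, 2.66 in 9F, 3.72 in 15F and 3.10 in 16F of Sham-WM. In VSG it was 865 CPM in 1F, 365 in 8F, 118 in 11F and 29.9 in 18F. The VSG libraries were all above the sham libraries, of which 4F was the highest, and 1F and 18F were the highest and lowest of VSG, as for most Kupffer cell genes. S100a9, the most abundant over all libraries, was at 326 CPM in 1F, 132 in 8F, 53.3 in 11F and 8.76 in 18F of VSG and between 0.162 and 5.04 CPM in the sham libraries. It rose by 6.31 ± 1.07 over Sham-Ad lib (log2, SE; edgeR adjusted p = 0.0410), S100a8 by 6.27, Ngp by 7.34 and Retnlg by 5.17. All 4 calls ended without any 1 of 3F, 6F, 10F, 2F, 9F, 15F, 16F or 1F, with log2 fold changes from 5.31 to 6.31 for S100a9, 5.20 to 6.27 for S100a8, 6.31 to 7.33 for Ngp and 4.10 to 5.17 for Retnlg. Without 4F the values were 8.17, 8.32, 10.06 and 6.73. Over Sham-WM the 4 genes rose by 7.71, 7.17, 10.55 and 5.63. Ly6g, a defining neutrophil marker, had 0 counts in all 8 sham libraries and in 11F, where a count of 0 allows up to 3, and at most 44 in VSG. In Sham-WM against Sham-Ad lib edgeR called 0 of the 6, 0 had an unadjusted p under 0.05 and DESeq2 called 0. The medians were 5.72, −0.71 and 6.40 in VSG against Sham-Ad lib, the sham groups, and VSG against Sham-WM. The part of monocytes and neutrophils in the result for the Kupffer cell genes was not tested.

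**Figure D5:**
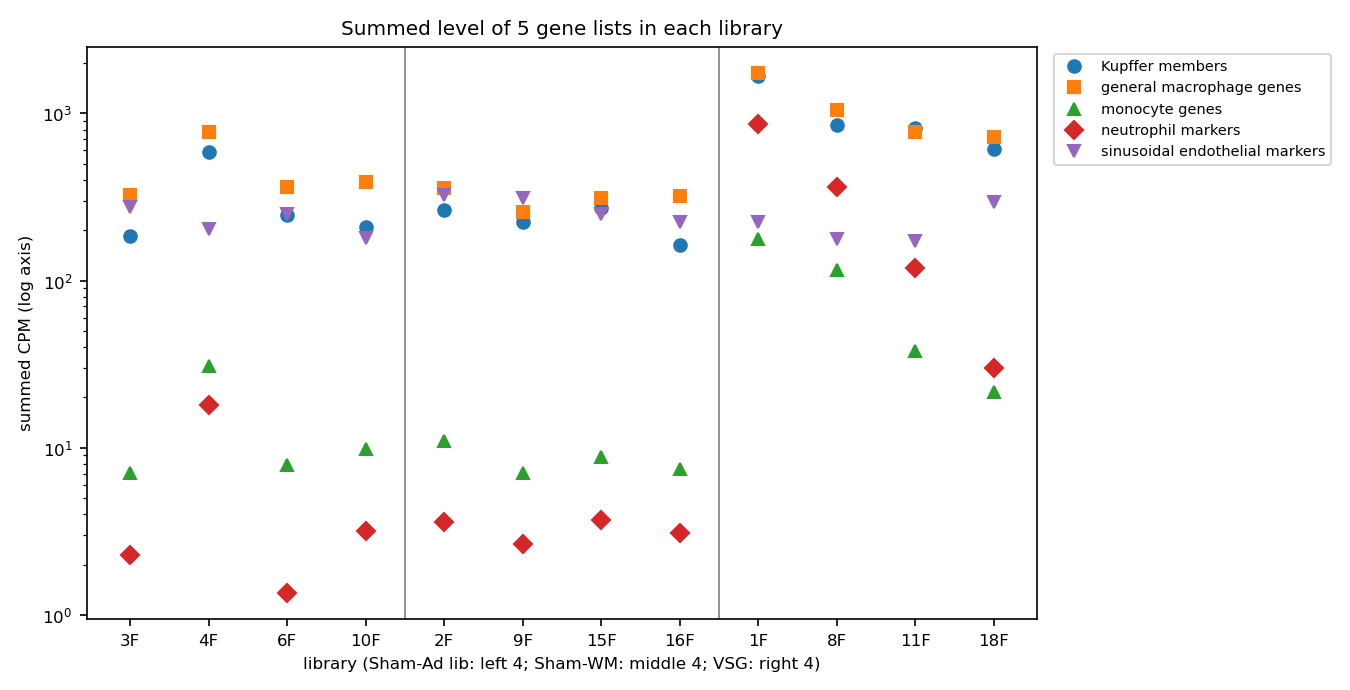
Summed CPM of 10 Kupffer cell genes, 16 general macrophage genes, 8 monocyte genes, 8 neutrophil markers and 8 sinusoidal endothelial markers in each of 12 libraries (log axis). The neutrophil markers range from 1.35 CPM in 6F to 865 in 1F, and the endothelial markers from 173 to 326.

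Of 9 lipid-associated macrophage genes, known from steatotic liver, edgeR called 0 in VSG against Sham-Ad lib, with 3 at an unadjusted p under 0.05 and 3 called by DESeq2, all higher. It called 0 in Sham-WM against Sham-Ad lib, with 0 at an unadjusted p under 0.05 and 0 by DESeq2. In VSG, Lpl, Cd63 and Cd9 rose over Sham-WM by 1.45, 1.28 and 1.24, and the call of Cd63 ended without any 1 of 9F, 15F, 16F or 1F, with 0.73 to 1.27. Spp1, the most abundant over all libraries, had means of 53.1 CPM in VSG, 31.4 in Sham-WM and 38.3 in Sham-Ad lib and was not called. The medians were 0.93, −0.23 and 1.24 in the same order of comparisons.

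Niche signals are the factors, with their receptors, that keep Kupffer cells alive and hold their identity. Of 12, edgeR called 0 in VSG against Sham-Ad lib, with 3 higher and 3 lower at an unadjusted p under 0.05, and 1 higher and 1 lower by DESeq2. Il34, a ligand of the receptor encoded by Csf1r, had means of 1.89 CPM in VSG, 0.885 in Sham-WM and 2.03 in Sham-Ad lib. It was lower in Sham-WM than in Sham-Ad lib, by −1.19 on the log2 scale (edgeR adjusted p = 0.0149), a call that ended without 15F or 16F, with −1.15 to −1.11, and it rose by 1.09 in VSG over Sham-WM. Csf1r, the most abundant over all libraries and also one of the general macrophage genes, rose over Sham-WM by 2.09 ± 0.38 (edgeR adjusted p = 0.00258). Acvrl1 rose by 0.91, a call that ended without any 1 of 2F, 15F, 16F, 1F or 8F, with 0.75 to 0.95. Gdf2, the gene of the BMP9 ligand, was lower in VSG than in Sham-WM by −0.79, and Smad4, the next most abundant over all libraries, was not called. The medians were −0.19, −0.035 and 0.03 in VSG against Sham-Ad lib, the sham groups, and VSG against Sham-WM.

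Partners of the Kupffer cell genes were taken as complement proteins that act with C1q, haptoglobin, which binds the haemoglobin taken up by Cd163, and haem oxygenase, which breaks down haem. Of 8, edgeR called 0 in VSG against Sham-Ad lib, with 4 at an unadjusted p under 0.05 and 2 called by DESeq2, all higher, and 0 in Sham-WM against Sham-Ad lib, with 3 and 2, all lower. In VSG against Sham-WM it called 5, all higher. Hp, the gene of haptoglobin, rose by 2.28 ± 0.44 (log2, SE; edgeR adjusted p = 0.00317), from a mean of 2709 to 13157 CPM. Hmox1 rose by 1.78, Serping1, an inhibitor of the C1 complex, by 0.92, C2 by 0.82 and C4b by 0.80. C3, with Hp the most abundant over all libraries, was not called in any comparison. The medians were 0.37, −0.25 and 0.81 in the same order of comparisons.

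Markers of other liver cells were compared with Sham-Ad lib, where edgeR called 0.467% of all genes higher and 0.283% lower for VSG. For Sham-WM these shares were 3.53% and 3.45%. Of 8 sinusoidal endothelial markers edgeR called 0 for VSG, with 0 at an unadjusted p under 0.05 and 0 by DESeq2, and 0 for Sham-WM, with 1 and 0. Ptprb and Kdr were lower in VSG than in Sham-WM, by −0.83 and −0.89 (log2), and Fcgr2b was not called. The call of Ptprb ended without 2F, 9F or 1F, with −0.78 to −0.74. Of 8 stellate cell markers edgeR called 0 for VSG against Sham-Ad lib, with 4 at an unadjusted p under 0.05 and 3 by DESeq2, all lower. Lrat rose in Sham-WM over Sham-Ad lib by 0.82, a call that ended without any 1 of 3F, 4F, 6F, 10F, 15F, 16F or 8F, with 0.54 to 0.92, the lowest without 15F. Reln, Lrat, Ecm1 and Hgf were lower in VSG than in Sham-WM, by −1.06, −1.33, −0.73 and −1.36, and Dcn, the most abundant, was not called. Of 6 hepatocyte markers edgeR called 0 against Sham-Ad lib for VSG and for Sham-WM, with 0 and 0 at an unadjusted p under 0.05 and 0 and 0 by DESeq2. Alb and Cps1 were lower in VSG than in Sham-WM, by −0.73 and −0.83, and Cyp2e1 was not called. The call of Alb ended without any 1 of 9F, 15F, 16F, 1F, 8F or 11F, with −0.74 to −0.66. Median log2 fold changes in VSG against Sham-Ad lib, the sham groups, and VSG against Sham-WM were −0.048, 0.23 and −0.27 for endothelial, −0.47, 0.081 and −0.63 for stellate and −0.23, 0.13 and −0.43 for hepatocyte markers.

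Some lymphocyte markers were higher in VSG. Of the B and plasma cell markers reported here, Jchain rose over Sham-Ad lib by 2.77 ± 0.51 (log2, SE; edgeR adjusted p = 0.0435), a call that ended without any 1 of 3F, 6F, 10F, 2F, 9F, 15F, 16F or 1F, with 2.44 to 2.77, and without 4F the value was 3.32. Over Sham-WM, Jchain, Ighm and Cd79b rose by 3.00, 1.95 and 0.95. The call of Cd79b ended without 15F or 16F, with 0.87 to 0.91. Of 4 T and NK cell markers tested of 8, edgeR called 0 in VSG against Sham-Ad lib, with 3 at an unadjusted p under 0.05, all higher, and 0 by DESeq2. Gzma, Nkg7 and Cd3g rose over Sham-WM by 2.53, 2.01 and 1.65, and the call of Cd3g ended without 16F or 1F, with 1.51 to 1.55. The medians for T and NK cell markers were 1.17, −0.66 and 1.83 in the same order of comparisons.

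Of 5 dendritic cell markers tested of 7, edgeR called 0 in VSG against Sham-Ad lib, with 2 at an unadjusted p under 0.05, both higher, and 0 by DESeq2. Xcr1 rose over Sham-WM by 1.33, a call that ended without any 1 of 2F, 9F, 15F, 16F, 1F, 8F or 11F, with 1.08 to 1.41, and Zbtb46 and Clec9a were not called. Of 3 peritoneal macrophage markers tested of 5, edgeR called 0 in VSG against Sham-Ad lib, with 2 and 0. Naip1 and Selp rose over Sham-WM by 1.81 and 0.78, and the call of Selp ended without any single library other than 4F, with 0.63 to 0.85. Gata6, which defines peritoneal macrophages, was between 6.53 and 11.0 CPM in all 12 libraries and was not called, and Lbhd2 had 0 counts in each. For the lymphocyte, dendritic and peritoneal lists together, edgeR called 0 in Sham-WM against Sham-Ad lib, with 1 at an unadjusted p under 0.05 and 0 by DESeq2. Of 4 cholangiocyte markers tested of 5 edgeR called 0 in each of the 3 comparisons, with 0, 0 and 1 at an unadjusted p under 0.05 and 0, 0 and 1 by DESeq2. Of 5 red blood cell markers it also called 0 in each, with 0, 1 and 0 at an unadjusted p under 0.05 and 0, 1 and 0 by DESeq2. Median log2 fold changes in the same order of comparisons were 0.41, 0.067 and 1.18 for dendritic cell, 0.79, 0.011 and 0.78 for peritoneal macrophage, −0.32, 0.10 and −0.42 for cholangiocyte and 0.18, −0.88 and 1.00 for red blood cell markers. In VSG against Sham-WM, the lists from the lipid-associated macrophage genes onwards had 0 calls with RUVs factors, apart from 1 niche signal, and 0 with groups by the second label field.

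As a description, the log2 CPM of each Kupffer cell gene was compared with the mean of the other 9 over the 12 libraries, which share the treatment groups. Cd5l was closest, with r = 0.998 (n = 12 libraries), or 0.996 after the group means were removed. Cd163 was farthest, with 0.813, or 0.515 within groups, and the other 8 lay between 0.958 and 0.993. Outside all lists, the 10 genes most like the mean of the members were Cfp, Rgs2, Kctd12, Lrrc25, Cd300a, Lgmn, Cd53, Fpr1, Unc93b1 and Cd300ld, with r from 0.985 to 0.992 (n = 12 libraries). Cfp encodes properdin, which stabilises the convertase of the alternative complement pathway, and had means of 52.7 ± 23.0 CPM in VSG, 11.1 ± 2.21 in Sham-WM and 15.1 ± 9.02 in Sham-Ad lib (SD, n = 4). Lgmn, which encodes a lysosomal protease, had means of 126, 46.2 and 54.0 CPM in the same order of groups.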

How the data were processed

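Poly(A) libraries were made with a directional kit. Per the submitters' processing notes, reads were aligned to mm10 with TopHat2 2.1.1 and counted with featureCounts, and the deposited values are whole counts per gene that the authors had not normalized. Positions and exon lengths came from GENCODE M21, which matched 45229 of 46078 genes; none of the 10 members overlapped another gene there.

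Libraries were grouped by the animal number that library name and sample title share. The 12 libraries were fitted together with edgeR 4.0.16 in R 4.3.3 (filterByExpr with a minimum count of 10, TMM factors, glmQLFit, glmQLFTest), with Benjamini-Hochberg adjustment over 13054 genes and calls at 0.05. These genes held at least 99.88% of each library's counts. The SE is the size of the log2 fold change over the square root of F. The steps were tested on simulated data. Reads had no molecular identifiers, so a limit from a count of 0 covers counting error only.

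Alternatives were DESeq2 1.42.0, RLE and upper quartile factors, no filter, 10 counts in every library, only the groups compared, 2 RUVs or RUVr factors computed from their definitions, groups by the second label field, library size alone for levels, and each of 12 libraries left out.

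The members and the 16 other gene lists were chosen with earlier results of these data known. From each list, in each comparison, the 2 most abundant tested genes and up to 4 called genes with the largest log2 fold change are named, and a list with no called gene is given by its count and median. Abundant genes that were not called are not given again in every comparison. One gene that met this rule is not reported here, nor are the separate count and median of its list; the count over several lists and the summed level include it. C4b, Ly6g, Lbhd2 and the 4 promoters printed were chosen after their values were seen. The 10 genes most like the members had a mean log2 CPM of at least 1. Figures were drawn with matplotlib 3.10.9.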

Additional observations from a re-analysis of the deposited data

Results flagged for a closer look

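In 81 groups of 4 libraries (the 10 genes and the 17 summed lists in 3 treatment groups, on the log2 scale), the gap between the highest or lowest library and its nearest neighbour was divided by the range of the group. It passed Dixon's critical value in 7 of them, and chance gives this in about 1 in 20 groups. The groups are not independent, since they share libraries and the 10 genes moved together. The 7 can therefore not be weighed against that share. Library 4F was far above the other Sham-Ad lib libraries for Marco (0.932), Adgre1 (0.843), C1qc (0.838) and the summed niche signals (0.839). Library 1F was far above the other VSG libraries for the summed B and plasma cell markers (0.847). For the summed T and NK cell markers, which were between 1.94 and 4.52 CPM in the sham libraries, 6F was far below the other Sham-Ad lib libraries (0.928) and 2F far above the other Sham-WM libraries (0.883). The causes were not tested.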

How the results depend on the processing

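For VSG against Sham-Ad lib, 2 of the 10 Kupffer cell genes were called. The number was 9 with DESeq2, 8 with no filter on low counts, 10 with RUVr factors, and 0 with 10 counts in every library, with only the groups compared, with RUVs factors or with the second label field. Over all genes the number was 98 in the main fit, 1202 with DESeq2, 628 with no filter and 3034 with RUVr factors. It was 8 with RUVs factors and 0 with the other alternatives just named. With 1 library left out the number of the 10 genes called was 0 to 10, and the number over all genes was 0 to 1089. The median log2 fold change of 1.63 was 0.75 with RUVs factors, 0.91 with the second label field and 1.25 to 2.13 with 1 library left out. For VSG against Sham-WM, the 10 genes called became 1 with RUVs factors and 0 with the second label field, and the median of 2.01 became 0.92 and 0.53. The number was 10 under each other alternative. Over all genes, 3509 were called in the main fit, 524 with RUVs factors and 0 with the second label field. Under the other alternatives that number ran from 2196 without 16F to 5513 with RUVr factors. For Sham-WM against Sham-Ad lib the 0 genes called became 1 with RUVr factors, and the median of −0.44 became 0.37 with the second label field. The cause was not tested.

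Changes of sign came in Sham-WM against Sham-Ad lib. With the second label field the log2 fold changes were Clec4f 0.26, Vsig4 0.083, Timd4 0.066, Marco 0.66, Cd5l 0.40, Adgre1 0.99, C1qa 0.25, C1qb 0.33, C1qc 0.43, Cd163 0.88. With RUVs factors they were Vsig4 0.074, Timd4 0.15 and Marco 0.16. With 1 library left out they ranged over Clec4f −0.33 to 0.085, Vsig4 −0.34 to 0.16, Timd4 −0.61 to 0.37, Marco −1.24 to 0.60, Cd5l −0.60 to 0.19, C1qa −0.60 to 0.011, C1qb −0.67 to 0.13, C1qc −0.62 to 0.10, with the positive values without 4F. Of the 336 counts of called genes that each comparison had in the other lists and alternatives, 50 were higher and 61 lower by over 1.5 times for VSG against Sham-Ad lib, 22 and 12 for Sham-WM against Sham-Ad lib, and 12 and 65 for VSG against Sham-WM. All 60 levels and ratios moved by less than 1 SD with library size alone. No paired analysis was possible because no animal number is shared between groups.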
